A study of Mus musculus with 26 samples.

Results

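Mouse embryonic stem cells (ESCs) that lack ERR beta and express wild-type ERR gamma were compared with ESCs that lack ERR beta and express no ectopic receptor. The comparison used 6 of the 26 RNA-seq libraries of the study, 4 of its 14 clones and 2 of its 7 groups, and the libraries were chosen by their titles alone. The ERR gamma group (KO/ERRg-wt) held clones 14-1-10 and 14-11 with 1 library each. The empty knockout (KO/Mock, ectopic expression given as none) held clones 12-1 and 12-3 with 2 libraries each, which were summed per clone, so that n = 2 clones in each group. All 4 clones have the genotype ERR beta -/- and were all exposed to doxycycline, the agent that switches on the constructs, at 2 µg/ml for 3 days. The study's design text names the medium as N2B27 with the inhibitors PD and CH, while the growth protocol also lists LIF, and the labels leave unclear which applied. Every clone is a single isolate and the labels do not say which clones share a parent, so what the receptor does and what sets the clones of each group apart cannot be told apart. Knockout cells with wild-type ERR beta (clones 8-3 and 8-4) and wild-type cells without a receptor construct (WT/Mock, clones 5-2 and 5-5) are given beside them where a value needs a reference, as are 6 knockout clones of 3 groups with mutant ERR beta (labelled DBDm3, DBDm6 and AF2M6).

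ERR gamma, encoded by Esrrg, is an orphan nuclear receptor of the estrogen-related receptor family, whose other members are ERR alpha and ERR beta. The receptors bind an extended nuclear receptor half-site, AAGGTCA, as monomers or dimers and recruit coactivators without a known natural ligand. ERR alpha and ERR gamma are best known for driving genes of mitochondrial energy metabolism in heart and muscle, and ERR beta for its place in the network that keeps mouse ESCs in the naive state.

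The targeted receptors were examined first. Esrrg (mm10 chromosome 1, 187609006 to 188214884, plus strand) had 0 counts in both empty clones, 6381 counts (229 CPM when divided by the library's total) in clone 14-1-10 and 3152 counts (126 CPM) in clone 14-11. A count of 0 in the 90939451 counts of the empty knockout allows up to 0.033 CPM, so the level was at least 6940-fold higher in clone 14-1-10 and at least 3810-fold higher in clone 14-11, counting error only. Clone 14-1-10 thus carried 1.82 times the Esrrg level of clone 14-11, and the groups did not overlap. When only these 4 clones were fitted, Esrrg had an adjusted p of 0.0756 in edgeR's quasi-likelihood test, against 4.38e-06 in the fit of all 14 clones.

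Esrrb (chromosome 12, 86361117 to 86521628, plus strand), which encodes ERR beta, was still read in the knockout, at 277 and 276 CPM in the empty clones. It stood at 477 and 466 CPM in the ERR gamma clones, although these carry no ERR beta construct. Both ERR gamma clones lay above both empty clones, and the difference was called (log2 fold change 0.77 ± 0.074 standard error, adjusted p = 3.4e-05, edgeR's quasi-likelihood test with Benjamini-Hochberg adjustment, as for every adjusted p that follows). The mean in the ERR gamma clones was 81.1% of that in WT/Mock, and the mean in the empty clones 47.6%. Counts per gene do not separate transcripts that can make a receptor from those of the disrupted locus. Esrra (chromosome 19), which encodes ERR alpha, had 25.8 and 24.1 CPM in the empty and 29.7 and 25.1 CPM in the ERR gamma clones and was not called (0.14 ± 0.10, adjusted p = 0.321).

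The 6 libraries held 21276790 to 27875142 counts each, and the ribosomal RNA gene Rn45s took 1.40% to 2.64% of them. ESC markers were present in every clone, with a summed level of 2890 and 2960 CPM over 7 genes in the empty clones and 3590 and 3460 CPM in the ERR gamma clones. Fibroblast feeder markers summed to 2.89 and 2.79 CPM in the empty and 1.40 and 1.10 CPM in the ERR gamma clones over 9 genes, with Col3a1, Acta2, Postn, Lum and Dcn too low to test in any group. Markers of the 2-cell-like state summed to at most 0.276 CPM. Primitive endoderm markers summed to 748 and 722 against 935 and 932 CPM over 15 genes, and trophoblast markers to 55.0 and 46.1 against 76.9 and 92.6 CPM over 9 genes. In bulk RNA, fewer cells of a type and less RNA per cell cannot be told apart. The chi-square per gene was 7.21 between the 2 libraries of clone 12-3 and 2.82 between those of clone 12-1, against 3.63 between the first libraries of both clones. Repeat libraries of a clone were not treated as replicates.

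Chromosomes 6 and 8 are shown apart, because their genes were lower as a body in both ERR gamma clones, a trait shared with all 6 clones that carry mutant ERR beta. The median log2 shift from the mean of the empty clones over expressed genes was −0.364 and −0.384 on chromosome 6 and −0.533 and −0.531 on chromosome 8, in clones 14-1-10 and 14-11. On every other chromosome the medians of these clones lay between 0.00328 and 0.0904. The empty clones lay within 0.0218 of their mean on every chromosome, and the ERR beta clones between −0.0476 and 0.0704. In the 6 clones with mutant ERR beta the median ran from −0.961 to −0.407 on chromosome 6 and from −0.546 to −0.46 on chromosome 8. In windows of 20 Mb the shift was below 0 along the whole of both chromosomes, from −0.207 to −0.506 over 8 windows of chromosome 6 and from −0.348 to −0.601 over 7 windows of chromosome 8. Whether a chromosome-wide shift comes from the number of chromosome copies was not tested.

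**Figure D1:**
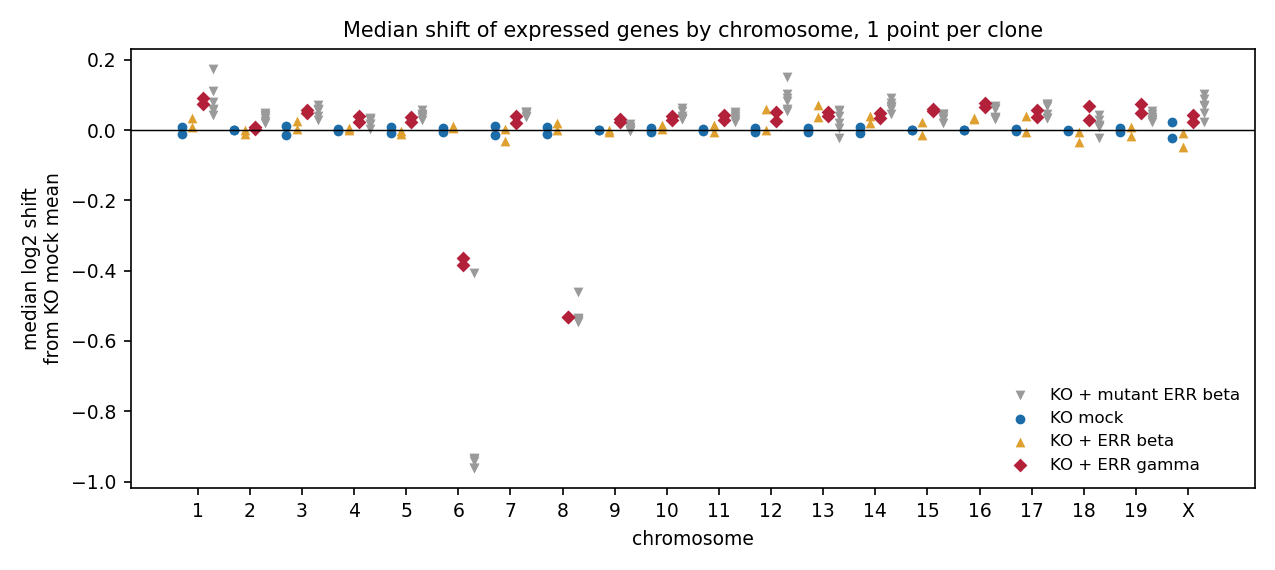
Median log2 shift of expressed genes from the mean of the 2 empty knockout clones (vertical axis) by chromosome (horizontal axis), 1 point per clone, for the knockout without a receptor, with ERR beta, with ERR gamma and with mutant ERR beta (6 clones of 3 groups). Both ERR gamma clones fall to about the same place on chromosomes 6 and 8, at −0.364 and −0.384 and at −0.533 and −0.531, and stay between 0.00328 and 0.0904 elsewhere, and the clones with mutant ERR beta are low on the same chromosomes.

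Of 13707 genes tested outside chromosomes 6 and 8, 2946 (21.5%) were called higher and 2050 (15%) lower in the ERR gamma clones (36.4% in all), at an adjusted p below 0.05. Of these, 968 were at least 2-fold higher and 566 at least 2-fold lower, and the median log2 fold change of all 13707 genes was 0.0396. On chromosome 6, 58 of 736 tested genes (7.88%) were called higher and 275 (37.4%) lower, 45.2% in all, with a median of −0.377. On chromosome 8, 39 of 795 (4.91%) were called higher and 470 (59.1%) lower, 64.0% in all, with a median of −0.529. When each clone's shift of these chromosomes was taken out, the split became 167 higher and 126 lower on chromosome 6 and 156 higher and 137 lower on chromosome 8, so that the share of higher calls among called genes went from 17.4% to 57.0% and from 7.66% to 53.2%. The counts fell when any 1 clone was left out: outside chromosomes 6 and 8 there were 1740 higher and 1047 lower calls without clone 12-1, 1895 and 1294 without 12-3, 1824 and 1120 without 14-1-10, and 1897 and 1079 without 14-11. With only the 4 clones in the fit, 4224 genes were called higher and 3245 lower.

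Genes of muscle-type fuel use stood among the largest increases. Fabp3, the heart-type fatty acid-binding protein, had 4.30 and 4.82 CPM in the empty clones and 53.9 and 64.4 CPM in the ERR gamma clones (3.69 ± 0.22, adjusted p = 4.39e-06). Cpt1b, the muscle form of the enzyme that commits fatty acids to mitochondrial import, went from 2.34 and 3.05 to 34.4 and 35.1 CPM (3.69 ± 0.38, adjusted p = 5.31e-05). Of the exonic bases of Cpt1b, 94.8% are shared with a read-through gene annotated over Chkb and Cpt1b, so its reads cannot be assigned to 1 of them. For both genes the 2 ERR gamma clones were close together and at least 10-fold above either empty clone.

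Esrrg itself aside, the highest fold change of the named genes outside chromosomes 6 and 8 was that of Klhdc7a, a kelch-domain protein gene on chromosome 4, with 0.591 and 0.757 CPM in the empty and 21.2 and 18.7 CPM in the ERR gamma clones (4.88 ± 0.49, adjusted p = 5.08e-05). Next came Copz2, a subunit of the COPI vesicle coat (4.25 ± 0.49), S100a1, a calcium-binding protein of heart and muscle (4.23 ± 0.73), Camk2n1, an inhibitor of the kinase CaMKII (3.92 ± 0.35), and Kcnt2, a sodium-activated potassium channel (3.92 ± 0.41). Hdac7, a class IIa histone deacetylase, Mme, the membrane peptidase neprilysin, Adrbk2, a receptor kinase, Car8, a carbonic anhydrase-related protein, and Padi2, a peptidylarginine deiminase, rose by 3.39 to 3.85 on the log2 scale. The WT/Mock mean lay between the means of the 2 groups in 14 of the 15 highest genes, the exception being Tgfbi, for example at 9.26 CPM for Klhdc7a, 16.3 CPM for Fabp3 and 18.4 CPM for Mme, and the ERR gamma mean lay above the WT/Mock mean in 15 of 15. These genes were picked for their fold change, and ERR gamma against WT/Mock was not tested.

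Grb10 and Tgfbi were not above the empty knockout with ERR beta. Grb10, an imprinted adaptor that restrains insulin and insulin-like growth factor signalling, had 7.19 and 7.03 CPM in the empty, 6.18 and 7.78 CPM in the ERR beta and 95.2 and 119 CPM in the ERR gamma clones (3.91 ± 0.71 against the empty knockout, adjusted p = 0.00218). Tgfbi, a matrix protein induced by TGF-beta, had 1.43 and 0.80 CPM in the empty, 0.702 and 0.948 CPM in the ERR beta and 12.8 and 14.8 CPM in the ERR gamma clones (3.62 ± 0.35, adjusted p = 3.46e-05). High Grb10 was not particular to the ERR gamma clones: it had 49.4 and 46.5 CPM in the DBDm3, 93.7 and 50.8 CPM in the DBDm6 and 56.5 and 8.01 CPM in the AF2M6 clones. Tgfbi had 0.619 to 2.12 CPM in those 6 clones, below both ERR gamma clones. The direct difference from ERR beta was 3.94 ± 0.71 for Grb10 (adjusted p = 0.00354) and 4.06 ± 0.36 for Tgfbi (adjusted p = 5.56e-05).

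**Figure D2:**
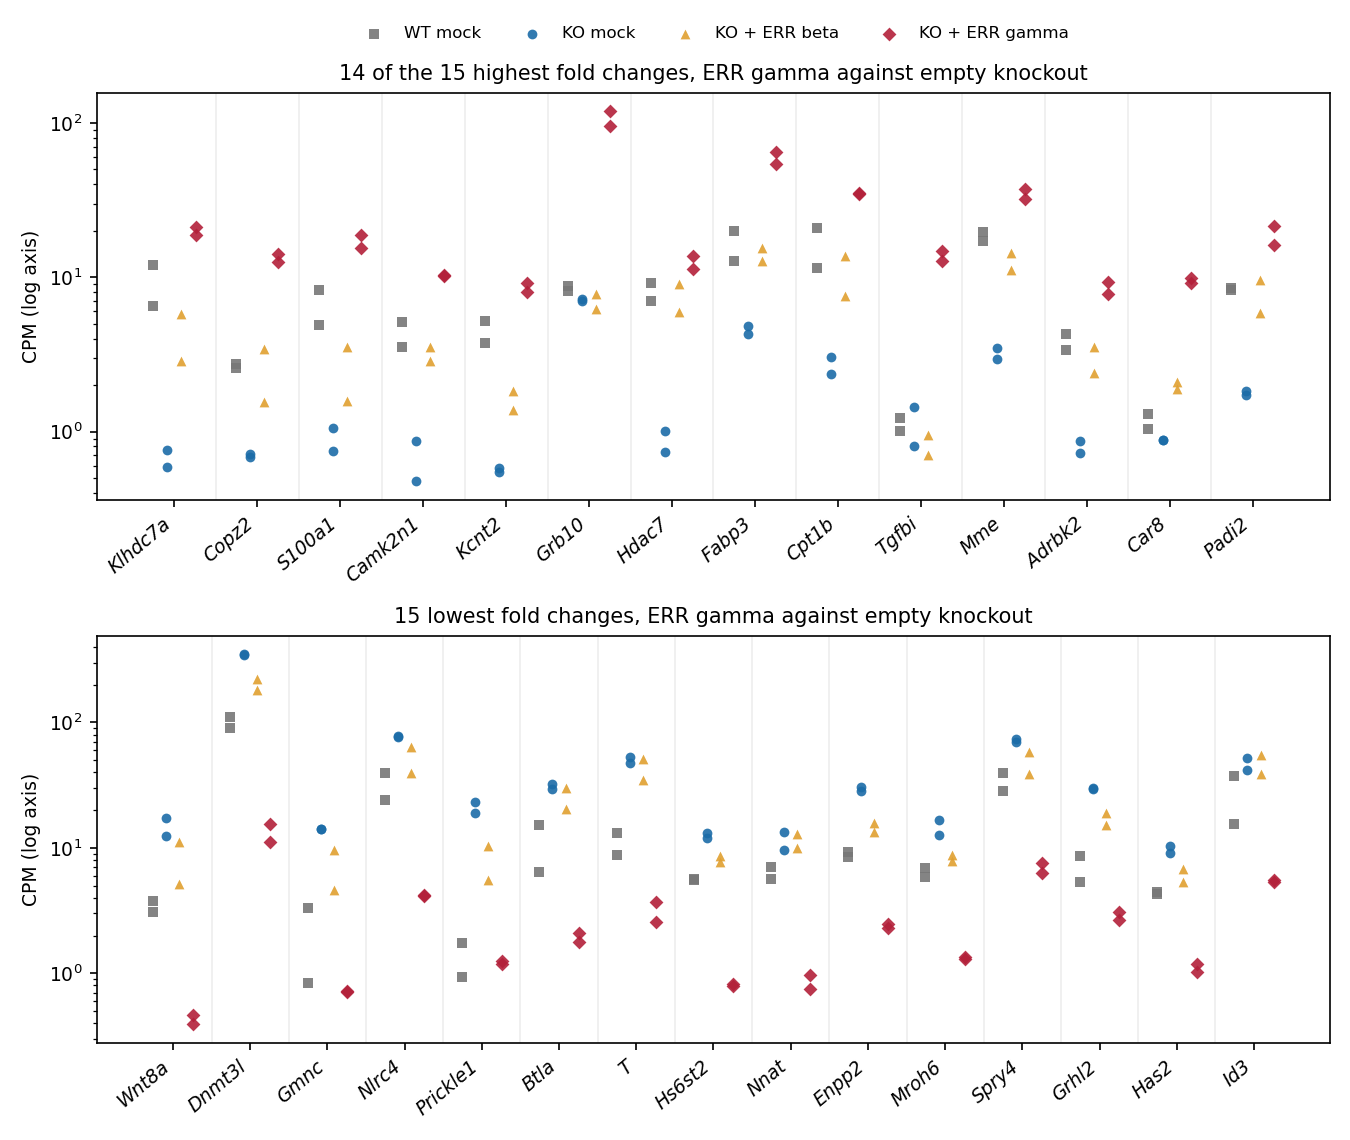
CPM on a log axis for 14 of the 15 genes with the highest (upper panel) and the 15 with the lowest (lower panel) fold change outside chromosomes 6 and 8, 1 point per clone, 2 clones in each of 4 groups. For Grb10 the ERR gamma clones stand at 95.2 and 119 CPM with the other 3 groups drawn below 10 CPM (the clones with mutant ERR beta, not drawn, reach 93.7 CPM), and for Dnmt3l they stand at 11.2 and 15.5 CPM with the wild-type clones in between.

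Among the 15 lowest genes outside chromosomes 6 and 8, Wnt8a, a Wnt ligand of the early embryo, had 17.2 and 12.5 CPM in the empty and 0.466 and 0.395 CPM in the ERR gamma clones (−5.09 ± 0.57, adjusted p = 9.52e-05). Dnmt3l, the cofactor of the de novo DNA methyltransferases, went from 342 and 349 to 11.2 and 15.5 CPM (−4.70 ± 0.23, adjusted p = 1.32e-06), with 99.7 CPM on average in WT/Mock. The mesoderm factor T (Brachyury) had 52.7 and 47.0 against 3.69 and 2.56 CPM (−3.99 ± 0.91, adjusted p = 0.00687). Each of these genes was several-fold lower in both ERR gamma clones than in either empty clone.

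Other genes among the 15 lowest act in signalling, adhesion and the extracellular matrix. Prickle1 (−4.11 ± 0.50) is a planar cell polarity protein, Hs6st2 (−3.95 ± 0.55) modifies heparan sulfate, Enpp2 (−3.63 ± 0.52) is the lysophosphatidic acid-producing enzyme autotaxin, and Has2 (−3.14 ± 0.46) makes hyaluronan. Id3 (−3.10 ± 0.47), an inhibitor of helix-loop-helix factors, Grhl2 (−3.38 ± 0.35), an epithelial transcription factor, Gmnc (−4.30 ± 0.64), a regulator of multiciliated cells, Mroh6 (−3.47 ± 0.26), the imprinted gene Nnat (−3.73 ± 0.60) and the immune genes Nlrc4 (−4.21 ± 0.41) and Btla (−4.0 ± 0.49) also fell. Spry4 (−3.38 ± 0.89, adjusted p = 0.0143), an inhibitor of FGF-MAPK signalling, lost its call without the filter on low counts (adjusted p = 0.0517) and without clone 12-1 (0.051), 14-1-10 (0.0836) or 14-11 (0.0673). In 0 of the 15 did the ERR gamma mean lie above the WT/Mock mean.

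The clones with mutant ERR beta, which share the shift of chromosomes 6 and 8, lay on the same side of the empty clones in many of these genes, a description with no test. In 14 of the 15 lowest genes all 6 mutant clones lay below both empty clones, the exception being Grhl2. In 6 of the 15 at least 1 mutant clone was as low as the higher ERR gamma clone, as in Spry4, at 0.705 to 18.6 CPM. In 8 of the 15 highest genes all 6 mutant clones lay above both empty clones, as in Fabp3, at 10.9 to 40.6 CPM, but in 0 of the 15 did a mutant clone reach the lower ERR gamma clone.

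The 2 ERR gamma clones differed in Esrrg but not in the same order in these genes. Among the 15 highest, 7 were higher in clone 14-1-10, with a ratio of clone 14-1-10 to 14-11 from 0.801 to 1.33 and a median of 0.977. Among the 15 lowest, 9 were higher in clone 14-1-10, with ratios from 0.721 to 1.44 and a median of 1.05. The corresponding ratio of Esrrg was 1.82.

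Knockout clones with wild-type ERR beta give a reference for a restored ERR receptor. They lack the shift of chromosomes 6 and 8 that the ERR gamma clones share with the 6 clones with mutant ERR beta. The comparisons of each receptor with the empty knockout share the empty clones, so their values are set side by side and only the direct contrast of ERR gamma with ERR beta is read as a test of their difference. That contrast called 3870 of 15238 genes (25.4%), 2055 higher (13.5%) and 1815 lower (11.9%) in the ERR gamma clones. These counts include chromosomes 6 and 8, whose shift the ERR beta clones do not share. The contrast called 2891 genes with those chromosomes left out of the fit and 3318 with each clone's shift as offset. It called 1745 without clone 14-1-10, 1775 without 14-11 and 1895 without the ERR beta clone 8-4. Of the 15 highest genes 14 were called higher than with ERR beta, the exception being Hdac7 (0.74 ± 0.34, adjusted p = 0.136), which was called when only the clones of these 2 groups were fitted. Adrbk2 was at the threshold (adjusted p = 0.0497) and lost its call under 9 of 12 alternatives. S100a1 was not called without the filter, 14-11 or 8-4, and Padi2 without 14-1-10 or 8-4. Of the 15 lowest, 15 were called lower than with ERR beta, although Spry4 lost that call under 8 of 12 alternatives, and T without the filter, 14-1-10 or 14-11.

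Side by side, Fabp3 stood 3.69 above the empty knockout with ERR gamma and 1.62 with ERR beta on the log2 scale, Cpt1b 3.69 and 1.98, and Mme 3.43 and 1.99. In the same order the differences were −4.70 and −0.77 for Dnmt3l, −3.99 and −0.22 for T and −3.10 and 0.0072 for Id3. Across the 15 highest genes the difference with ERR beta ran from −0.43 (Tgfbi) to 3.11 (Hdac7), and across the 15 lowest from −1.41 (Prickle1) to 0.0072 (Id3). The genes were chosen by the ERR gamma clones, which also enter the direct contrast, so these sizes describe the picked genes.

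**Figure D3:**
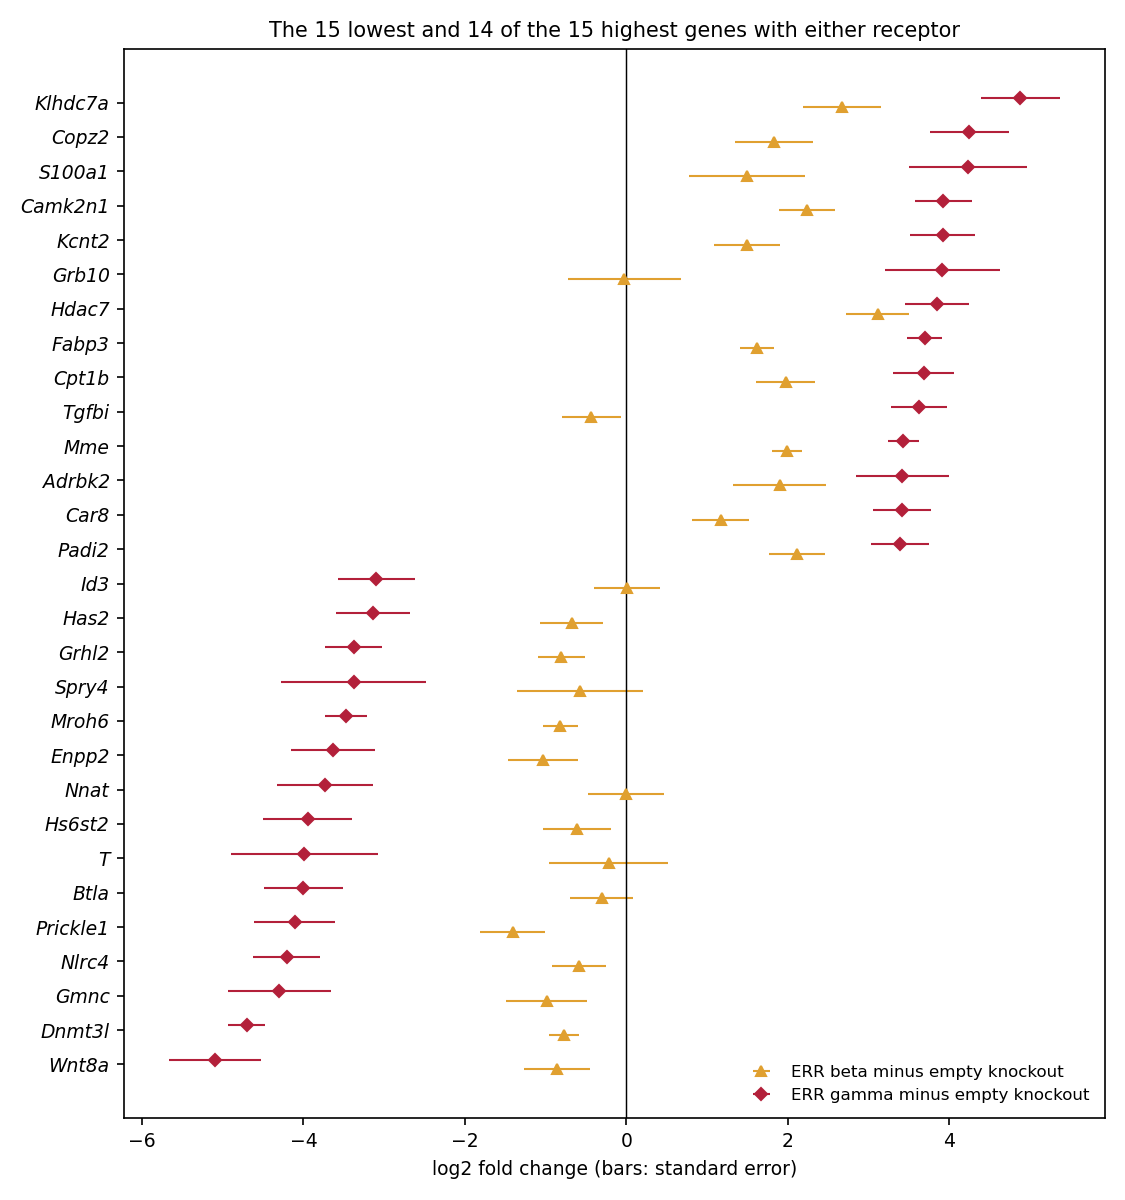
Log2 fold change against the empty knockout (horizontal axis, bars of 1 standard error) for 14 of the 15 genes with the highest and the 15 with the lowest values, with ERR gamma (diamonds) and ERR beta (triangles), 2 clones per group. Hdac7 stands at 3.85 and 3.11 and Grb10 at 3.91 and −0.028, and both rows of points share the empty clones.

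Promoters were searched for the receptor's known half-site. AAGGTCA was searched on both strands of 300-base RefSeq windows (GRCm38.p6, the genome of mm10), from 250 bases before to 50 after each start site. It was present in 1550 of all 32851 windows (4.72%). Counted by gene, it was present in 1454 of all 27025 genes with a window (5.38%), 420 of 10029 tested outside chromosomes 6 and 8 (4.19%), 40 of 742 genes called at least 2-fold higher outside chromosomes 6 and 8 (5.39%), 18 of 387 called at least 2-fold lower (4.65%) and 264 of 6286 not called (4.20%). None of the 10 genes with a window among the 15 highest held it, and none of the 9 among the 15 lowest. Among all named and called genes it was found in 4 of the 83 with a window (4.82%), a share between that of the tested genes and that of all genes. For these 4, 60 bases around each match are shown because they are the named genes that carry the letters of the site. The strand is that of the gene, and capitals mark the match, written as TGACCTT where it lies on the opposite strand.
Ccnd3 (chr17:47504928-47504987, plus strand): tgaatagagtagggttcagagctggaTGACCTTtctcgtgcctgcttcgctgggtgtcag
Pim3 (chr15:88861997-88862056, plus strand): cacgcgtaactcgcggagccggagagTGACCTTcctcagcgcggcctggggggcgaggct
Got1 (chr19:43524796-43524855, minus strand): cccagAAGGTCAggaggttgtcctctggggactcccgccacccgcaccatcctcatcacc
Ndufb4 (chr16:37654390-37654449, minus strand): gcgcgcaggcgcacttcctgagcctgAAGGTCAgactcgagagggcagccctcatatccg

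The match began 97 bases before the start site in Ccnd3, 171 in Pim3, 245 in Got1 and 55 in Ndufb4. Ccnd3, cyclin D3 of the G1 phase, had 49.6 and 49.2 CPM in the empty and 146 and 137 CPM in the ERR gamma clones (1.51 ± 0.11, adjusted p = 6.96e-06). Pim3, a survival kinase downstream of LIF and STAT3, had 32.5 and 30.5 against 62.4 and 64.9 CPM (1.02 ± 0.096, adjusted p = 2.92e-05). Got1, the cytosolic aspartate aminotransferase, had 124 and 127 against 220 and 204 CPM (0.75 ± 0.095, adjusted p = 0.00018), and Ndufb4, a subunit of respiratory complex I, 18.6 and 19.9 against 32.2 and 30.9 CPM (0.71 ± 0.078, adjusted p = 6.93e-05). All 4 rose, each with both ERR gamma clones above both empty clones, and the direct difference from ERR beta was called in each, from 0.48 for Ndufb4 to 1.05 for Ccnd3. The 6 clones with mutant ERR beta also lay above both empty clones in Ccnd3, Pim3 and Got1, at 160 to 210 CPM for Got1. In Ndufb4 they overlapped the empty clones, at 19.2 to 22.6 CPM. Whether the half-site bears on these changes was not tested.

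Gene lists were then read by function. The clones with mutant ERR beta are set beside some list members only, with no test. A change in a list therefore need not be particular to the ERR gamma clones. List counts include genes of chromosomes 6 and 8, without the shift taken out. Over all chromosomes 20% of tested genes were called higher and 18.3% lower (38.3% in all), with a median of 0.00349, and the counts of each list stand against these shares. Of 18 fatty acid oxidation genes, 12 rose and 0 fell, with a median of 0.445, and leaving out any 1 clone left 10 or 11 higher. Cpt1a, the liver-type carnitine palmitoyltransferase, had 38.1 and 44.2 CPM in the empty and 156 and 146 CPM in the ERR gamma clones (1.87 ± 0.24, adjusted p = 0.000235). Acadl, a long-chain acyl-CoA dehydrogenase, rose from 8.76 and 8.5 to 19 and 20 CPM (1.18 ± 0.16), and Etfb, a subunit of the flavoprotein that takes electrons from the dehydrogenases, by 0.52 ± 0.077. The enzyme steps were not all called: Hadhb, of the trifunctional protein, stood at 0.038 ± 0.076 and Eci1, an enoyl-CoA isomerase, at 0.14 ± 0.087, both outside the naming rule and chosen after their values were seen. Against ERR beta 10 of the 18 were called higher, Cpt1a by 1.33 and Acadl by 0.53. In Etfb the 6 clones with mutant ERR beta lay above both empty clones and overlapped the ERR gamma clones, at 61.14 to 77.05 CPM. In Cpt1a and Acadl they overlapped the empty clones.

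Of 22 genes of pyruvate entry and the tricarboxylic acid cycle, 10 rose and 1 fell (median 0.226), and 6 were higher without clone 14-11. Idh2, the mitochondrial NADP-dependent isocitrate dehydrogenase, had the largest change, from 80.7 and 78.8 to 331 and 335 CPM (2.06 ± 0.13, adjusted p = 5.58e-06), above its WT/Mock mean of 148 CPM and 1.38 ± 0.13 above ERR beta (adjusted p = 6.64e-05). The subunits Idh3a (0.44 ± 0.070) and Idh3b (0.42 ± 0.068) of the NAD-dependent enzyme and Sdhb (0.45 ± 0.061), the iron-sulfur subunit of succinate dehydrogenase, rose by much less. The 1 gene that fell was Sdhd, the membrane anchor of that enzyme (−0.35 ± 0.070, adjusted p = 0.00268). The 6 clones with mutant ERR beta lay above both empty clones in Idh2, Idh3b and Sdhb. They had 129 to 246 CPM of Idh2, and 122 to 162 CPM of Idh3b, where they overlapped the ERR gamma clones. In Idh3a they overlapped the empty clones.

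Of 73 nuclear genes of the respiratory chain and ATP synthase, 32 rose and 5 fell, with a median of 0.179. Ndufa6 had 66.6 and 63.1 against 104 and 107 CPM (0.71 ± 0.073) and Ndufb9 114 and 114 against 161 and 158 CPM (0.49 ± 0.054), both complex I subunits, as is Ndufb4 above. Over the 73 genes the fold changes ran from −0.54 to 0.71, so no subunit changed 2-fold. Of the 5 that fell, 3 lie on chromosomes 6 and 8, among them Ndufb7 (−0.54 ± 0.070), whose difference was −0.0103 (adjusted p = 0.916) once the chromosome 8 shift was taken out. Cycs stood at −0.156 (adjusted p = 0.131) and Cox4i1 at 0.317 (adjusted p = 0.00516, called higher) after the same correction. The other 2, chosen after their values were seen, were Uqcrh of complex III (−0.50) and Atp5k of the ATP synthase (−0.27). There were 19 higher calls without clone 14-1-10 and 21 without 12-1, and 2 or 3 lower calls without any 1 clone. Against ERR beta, 32 of the 73 were called higher and 2 lower. The 6 clones with mutant ERR beta also lay above both empty clones in Ndufa6 and Ndufb9, at 81.95 to 111.2 and 129.6 to 150.3 CPM.

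Oxidative muscle genes were covered in part, since 11 of 26 had too few counts to test. Of the 15 tested, 8 rose and 0 fell (median 0.579). Vegfa, the angiogenic growth factor, had 6.87 and 5.88 against 42.3 and 44.7 CPM (2.77 ± 0.33, adjusted p = 0.000139) and Atp2a2, the sarcoplasmic reticulum calcium pump, 216 and 214 against 316 and 326 CPM (0.58 ± 0.053). Pdk4 (chromosome 6), the kinase that shuts down pyruvate dehydrogenase, rose from 2.27 and 2.66 to 11.2 and 7.42 CPM (1.91 ± 0.26), or by 2.28 after the shift of chromosome 6. Structural muscle genes were mixed, and those named here were chosen after their values were seen. Des, the intermediate filament protein desmin, rose by 1.77 (adjusted p = 0.00309), while Tnni1, Tnnt1 and Tnnc1 of troponin stood at 0.30, −0.11 and −0.24 with adjusted p of 0.765, 0.773 and 0.682.

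Glycolysis genes moved both ways, with 4 of 21 higher and 6 lower (median −0.0739). Slc2a3 (chromosome 6), the glucose transporter GLUT3, had 1208 and 1330 against 2742 and 2777 CPM (1.12 ± 0.099, adjusted p = 2.14e-05), or 1.49 after the chromosome 6 shift. Hk1, the first enzyme of the pathway, rose from 50.5 and 42.7 to 126 and 117 CPM (1.38 ± 0.15). Ldha, which makes lactate, fell from 506 and 535 to 230 and 197 CPM (−1.28 ± 0.16, adjusted p = 0.000216), and Pfkl, the liver-type phosphofructokinase, by 0.68 on the log2 scale. Ldhb (chromosome 6), the lactate dehydrogenase subunit of oxidative tissues, rose by 0.60 ± 0.17, or by 0.97 after the shift. Lower calls numbered 2 without clone 12-3 or 14-11.

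Of 10 glutamine genes 5 rose and 3 fell, 1 of the 3 on chromosome 6 or 8. Slc1a5, a glutamine transporter, had 138 and 135 against 311 and 298 CPM (1.16 ± 0.21, adjusted p = 0.00154), and Slc38a1, another, 151 and 156 against 234 and 239 CPM (0.63 ± 0.085). Glud1, glutamate dehydrogenase, rose by 0.27 ± 0.053. Among 15 genes of the ATF4 stress response 10 rose and 0 fell (median 0.854), with 4 to 6 higher calls when any 1 clone was left out. Ddit3, the stress factor CHOP, had 4.39 and 4.95 against 29.7 and 31.8 CPM (2.72 ± 0.29, adjusted p = 6.84e-05), above its WT/Mock mean of 11.9 CPM. Psph, of serine synthesis, rose by 1.03 ± 0.11, Vldlr, a lipoprotein receptor, by 1.89 ± 0.36 and Trib3, a pseudokinase, by 1.64 ± 0.32, and each of the 4 was called higher than with ERR beta.

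**Figure D4:**
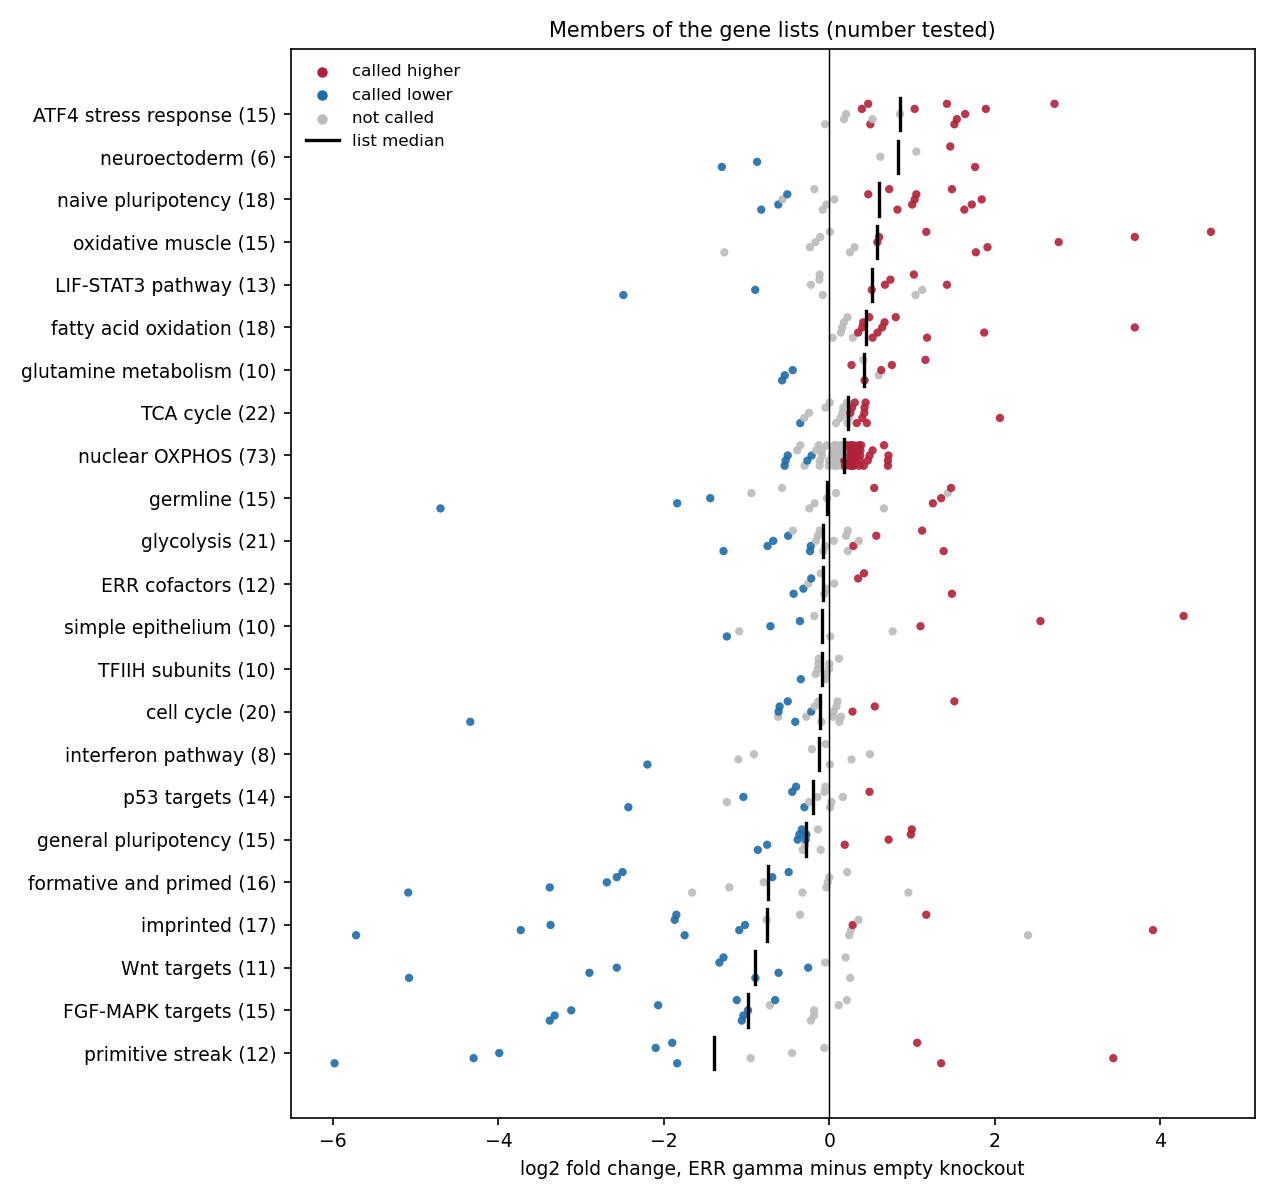
Log2 fold change of ERR gamma against the empty knockout (horizontal axis) for the tested members of 23 gene lists (rows, with the number tested), 1 point per gene with 1 cofactor gene not drawn, coloured by call, with the list median as a black bar. Fatty acid oxidation genes all lie above 0 with 12 of 18 called higher, Wnt and FGF-MAPK targets hold no gene called higher, and lists such as glycolysis spread to both sides.

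Naive pluripotency factors were higher in the main. Of 18 tested, 10 rose and 3 fell (median 0.595), and of the 5 on chromosomes 6 and 8, 1 rose and 2 fell. Tfcp2l1, a transcription factor of the naive network, had 498 and 478 against 996 and 990 CPM (1.03 ± 0.072, adjusted p = 6.71e-06), above the WT/Mock mean of 639 CPM. Prdm14, which restrains FGF signalling and DNA methylation in ESCs, had 10.4 and 13.3 against 44.4 and 40.7 CPM (1.84 ± 0.16, adjusted p = 1.99e-05). Klf5 had 46.4 and 46.1 against 87.1 and 98.7 CPM (1.00 ± 0.091), and Nr0b1, a nuclear receptor without a DNA-binding domain that is also a known ERR partner, 26.4 and 24.0 against 66.7 and 73.5 CPM (1.48 ± 0.23). In each of these genes both ERR gamma clones lay above both empty clones, and each was called higher than with ERR beta. The 6 clones with mutant ERR beta also lay above both empty clones in each of them, a description with no test. They had 609 to 768 CPM of Tfcp2l1, and 31.6 to 46.8 CPM of Prdm14, where they overlapped the ERR gamma clones.

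Nanog lies on chromosome 6 and still had 544 and 582 CPM in the empty against 944 and 913 CPM in the ERR gamma clones (0.72 ± 0.063, adjusted p = 2.1e-05), or 1.10 with the shift taken out. Zfp42 (REX1, chromosome 8) fell from 372 and 397 to 257 and 244 CPM (−0.62 ± 0.089), and its value was −0.0862, not called, with the shift taken out. Dppa3 (chromosome 6) fell by 0.82 ± 0.29 and stood at −0.449, not called, after the shift. Both names were chosen after their values were seen.

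Genes shared by naive and later pluripotent states were not higher as a list, with 4 of 15 higher and 7 lower (median −0.287), and 3 or 4 lower without any 1 clone. Sox2 had 246 and 224 against 370 and 404 CPM (0.72 ± 0.13, adjusted p = 0.00202) and Dppa5a, an RNA-binding protein of ESCs, 448 and 486 against 941 and 905 CPM (0.98 ± 0.12). Lin28a, the let-7 inhibitor, fell from 466 and 440 to 268 and 270 CPM (−0.75 ± 0.12), and L1td1 by 0.87 on the log2 scale. The 6 clones with mutant ERR beta had 420 to 553 CPM of Sox2, above both ERR gamma clones. In Dppa5a and L1td1 they lay on the same side of the empty clones as the ERR gamma clones. In Lin28a they overlapped the empty clones, at 390 to 474 CPM. Pou5f1 (OCT4), chosen after its values were seen, stood at 944 and 923 against 808 and 723 CPM (−0.29 ± 0.072, adjusted p = 0.00945).

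Of 16 genes of formative and primed pluripotency, 0 rose and 7 fell, with a median of −0.743. Dnmt3b, a de novo DNA methyltransferase, had 471 and 475 CPM in the empty, 71.5 and 75.4 CPM in the ERR gamma clones and 150 CPM on average in WT/Mock (−2.69 ± 0.27, adjusted p = 4.44e-05). Lef1, a transcription factor of the Wnt pathway, fell from 51.7 and 46.5 to 7.31 and 9.19 CPM (−2.57 ± 0.36). Dnmt3b and Lef1 were also lower than with ERR beta, by 1.93 and 2.58 on the log2 scale. Fgf5 and Pou3f1, defining markers of the formative state and chosen after their values were seen, were low in all 4 clones, at 0.197 to 0.523 and 0.822 to 1.14 CPM, and were not called.

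Of 12 primitive streak genes 3 rose and 6 fell (median −1.40), and 3 fell without clone 14-11. Cdx2 had 5.55 and 3.46 against 0.179 and 0.276 CPM (−4.30 ± 0.63, adjusted p = 0.000466) and Evx1 (chromosome 6) 6.80 and 5.43 against 0.0717 and 0.118 CPM (−5.98 ± 1.08, or −5.61 after the shift). Gsc, goosecoid, moved the other way, from 0.114 and 0.108 to 1.29 and 1.14 CPM (3.43 ± 0.41), as did the Nodal inhibitor Lefty2, from 60.2 and 67.1 to 158 and 167 CPM (1.35 ± 0.25). The list therefore did not move as a block. Of 6 neuroectoderm genes tested, Ncam1 (1.76 ± 0.18) and Map2 (1.46 ± 0.22) rose, Nes fell (−1.30 ± 0.19), and Tubb3 (chromosome 8) stood at −0.87 ± 0.27, a call lost after the shift (adjusted p = 0.364) and without clone 12-1, 14-1-10 or 14-11.

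Targets of the pathways that the PD and CH inhibitors act on were lower. Of 11 Wnt targets 0 rose and 8 fell (median −0.895), with 5 lower without clone 12-1 and 4 without 14-11. Axin2, the feedback inhibitor of the pathway, had 157 and 145 against 83.3 and 79.1 CPM (−0.90 ± 0.16, adjusted p = 0.00138), with 91.0 CPM on average in WT/Mock. Dkk1, a secreted Wnt inhibitor, had 2.98 and 2.29 against 0.0717 and 0.0789 CPM (−5.08 ± 0.42) and Ccnd1, cyclin D1, 283 and 262 against 181 and 175 CPM (−0.61 ± 0.093). Against ERR beta 7 of the 11 were called lower and 1 higher, the last being Notum (1.28), named after its values were seen.

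Of 15 FGF-MAPK targets 0 rose and 9 fell (median −0.984), with 5 lower without clone 12-1, 14-1-10 or 14-11. Dusp6, the ERK phosphatase, had 85.7 and 75.9 against 36.1 and 38 CPM (−1.12 ± 0.20, adjusted p = 0.0015) and Egr1, an immediate early factor, 1.73 and 1.28 against 0.108 and 0.237 CPM (−3.12 ± 0.46). Myc fell from 10.8 and 10.6 to 3.05 and 2.01 CPM (−2.07 ± 0.38) and Spred1, an inhibitor of the pathway, from 155 and 147 to 74.5 and 78.2 CPM (−0.98 ± 0.21). Against ERR beta 5 of the 15 were called lower and 0 higher. In Dusp6, Egr1, Myc and Spred1 the 6 clones with mutant ERR beta also lay below both empty clones, with no test. They had 19.6 to 53.8 CPM of Dusp6 and 56.0 to 106 CPM of Spred1, so that some lay below both ERR gamma clones. Of 13 genes of the LIF and STAT3 pathway 5 rose and 2 fell, with 1 lower after the shift of chromosomes 6 and 8. Il6st, the shared receptor subunit gp130 (0.51 ± 0.086), Jak1 (0.67 ± 0.12) and Pim3 above rose. Kitl, the KIT ligand, fell by 2.49 on the log2 scale. The 6 clones with mutant ERR beta overlapped the ERR gamma clones in Il6st, at 132.5 to 175.3 CPM, above both empty clones. In Jak1 they were not above the empty clones, at 23.3 to 37.4 against 35.5 and 39.2 CPM. In Kitl they lay below both empty clones.

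Imprinted genes are expressed from 1 parental copy. Of 17 tested 3 rose and 8 fell (median −0.76), with 1 higher without clone 12-3 or 14-11 and 4 or 5 lower without clone 12-3, 14-1-10 or 14-11. Besides Grb10 and Nnat, Peg10 (chromosome 6) fell from 1306 and 1063 to 131 and 98.0 CPM (−3.37 ± 0.32, or −3.0 after the shift, adjusted p = 3.46e-05 before it). Mest (chromosome 6), named after its values were seen, fell but lost its call after the shift (−1.48, adjusted p = 0.0879). Peg3, a zinc finger gene, had 479 and 403 against 181 and 253 CPM (−1.02 ± 0.20), a call lost when only the 4 clones were fitted (adjusted p = 0.0757). Phlda2 and Cdkn1c, named after their values were seen, differed between the 2 empty clones themselves, at 5.30 and 0.584 CPM and at 10.6 and 1.82 CPM. Among 15 germline genes 4 rose (2 without clone 12-3 or 14-1-10) and 3 fell, with Kit, the receptor of Kitl, at 55.6 and 54.6 against 146 and 160 CPM (1.47 ± 0.18), Sycp3 of the meiotic chromosome axis at 1.25 ± 0.20, and Nanos3 (chromosome 8) at −1.84 ± 0.38.

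Cell cycle genes gave 3 higher and 6 lower of 20 (median −0.115), and 3 of the 6 lower lie on chromosomes 6 and 8. The 3 D-type cyclins went apart: Ccnd3 rose, as shown with its promoter, while Ccnd1 and Ccnd2 fell. Ccnd2 (chromosome 6) went from 13 and 11.4 to 0.681 and 0.513 CPM (−4.34 ± 0.30, or −3.97 after the shift). Low Ccnd2 was not particular to the ERR gamma clones: the 6 clones with mutant ERR beta had 0.428 to 2.80 CPM. In Ccnd1 those 6 clones overlapped the empty clones. Mcm5 (chromosome 8), a subunit of the replicative helicase, stood at −0.60 ± 0.059 and at −0.0694, not called (adjusted p = 0.409), after the shift. Of 14 p53 targets 1 rose and 5 fell, led by Pmaip1 (NOXA), a cell death factor, with 112 and 113 against 19.5 and 22.2 CPM (−2.43 ± 0.41, adjusted p = 0.00112). Phlda3, a p53-induced inhibitor of AKT, fell by 1.04 on the log2 scale. Cdkn1a (−0.40) lost its call without clone 12-1 or 14-11, where it stood at −0.334 and −0.366. Sesn1 (0.48) lost its call without clone 12-3, where it stood at 0.376. Low Pmaip1 was not particular to the ERR gamma clones: the 6 clones with mutant ERR beta had 4.725 to 39.03 CPM. In Phlda3 those 6 clones overlapped the empty clones, at 39.18 to 95.26 CPM. Without clone 12-1 or 14-11, 2 p53 targets were called lower, and 3 without 14-1-10.

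Cofactors and the transcription factor TFIIH, which the study's title names beside ERR beta, were read next. Of 12 tested cofactors 3 rose and 4 fell: Nr0b1 as above, the coactivator Ncoa2 (0.42 ± 0.074) and the Mediator subunit Med1 (−0.32 ± 0.070) were among those with the smallest p. Ppargc1a, the coactivator PGC-1 alpha, had too few counts to test. Of 10 TFIIH subunits 0 rose and 1 fell, Ercc2 (−0.35 ± 0.093), whose call was lost without clone 12-1 (adjusted p = 0.0767) or 14-11 (0.0931). Of 8 interferon pathway genes 1 fell, Irgm1, a GTPase (−2.20 ± 0.44).

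Genes of simple epithelium were mixed, with 3 of 10 higher and 3 lower. Krt7, a keratin, had 0.227 and 0.411 CPM in the empty, 6.27 CPM in each ERR gamma clone and 1.01 CPM on average in WT/Mock (4.28 ± 0.46, adjusted p = 6.63e-05), and was 4.92 above ERR beta. Dsp, desmoplakin of the desmosome, rose from 6.98 and 7.98 to 44.7 and 43.1 CPM (2.55 ± 0.29) and Cldn4, a tight junction protein, from 86.7 and 92.9 to 191 and 194 CPM (1.10 ± 0.17). Epcam, the epithelial cell adhesion molecule, fell by 0.71 ± 0.11. Of the primitive endoderm markers, Sox7 (4.88 ± 0.64) and Lamc1 rose and Col4a1, Col4a2, Cubn and Lamb1 fell. Of the 4 that fell, 2 lie on chromosomes 6 and 8, and their calls here are from before the shift was taken out. Gata6 and Sox17, which define primitive endoderm, were below 0.4 CPM in all 4 clones. Trophoblast markers had 1 of 6 higher, Tfap2c, and Cdx2 and Tfap2a lower (1 lower without 12-3, 14-1-10 or 14-11), with Elf5, Hand1 and Plac1 too low to test.

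On chromosomes 6 and 8 the genes with the largest fold changes went well beyond the shift of their chromosome. Vwf (chromosome 6), von Willebrand factor, had 1.91 and 2.01 against 22.7 and 19.1 CPM (3.41 ± 0.24, or 3.79 after the shift), with 10.8 CPM on average in WT/Mock. Sfrp1 (chromosome 8), a secreted Wnt inhibitor, had 31.6 and 31.7 against 141 and 149 CPM (2.20 ± 0.18, or 2.73 after it). Adgre5, an adhesion receptor, Ppp1r3b, a glycogen-targeting phosphatase subunit, and Aldh1l1, of folate metabolism, rose by 2.47, 2.07 and 2.05. Besides Ccnd2 and Peg10, Epha1, an ephrin receptor, had 71.0 and 67.4 against 4.95 and 4.81 CPM (−3.82 ± 0.46, or −3.45 after the shift), and Wnt5b (−3.14) and the forkhead factor Foxi3 (−2.72) also fell. All 10 genes differed from ERR beta in the same direction in the direct contrast. The 6 clones with mutant ERR beta, which share the shift, lay below both empty clones in Ccnd2, Peg10, Epha1, Wnt5b and Foxi3, with no test. They had 3.86 to 14.9 CPM of Epha1 and 14.8 to 39.6 CPM of Wnt5b. In Vwf and Sfrp1 they lay above both empty clones, and in Adgre5, Ppp1r3b and Aldh1l1 they overlapped them.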

How the data were processed

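The members and gene lists were chosen with earlier results of these data known. The submitters' processing notes name STAR 2.7.8a and mm10. The authors deposited read counts per gene from featureCounts, whose version is 2.0.1 in the file header but 2.0.10 in those notes. Per the file headers, exonic reads of the reverse strand were counted, and a read in overlapping genes counted for each. The table holds 24421 genes and 26 count columns, and 0 columns were left unused. Here the libraries of a clone were summed, giving clone totals of 25103562 to 46376312 in the groups compared. Genes were kept with filterByExpr, scaled by TMM, and tested with edgeR 4.0.16 (R 4.3.3): a robust quasi-likelihood fit of 1 mean per group to all 14 clones, 15238 genes, 7 residual degrees of freedom, with Benjamini-Hochberg adjustment over all of them and a call at an adjusted p below 0.05. P-values measure the spread between 2 clones per group. Levels are TMM-scaled CPM, except where library totals are named, and log2 fold changes used a prior count of 0.125, with standard errors from the F statistic. For chromosomes 6 and 8 a second fit took each clone's median shift of that chromosome as an offset. A gene was named if it was called, had a mean log2 CPM of at least 1 over the 4 clones and no overlap between groups, and was among the 15 highest or 15 lowest outside chromosomes 6 and 8 or the 5 highest or 5 lowest on them; predicted genes and ribosomal RNA were passed over, the receptors were always named, and so were the 4 members of each list with the smallest p. Alternatives were library totals, no filter, DESeq2 1.42.0, only the groups compared, 1 library per clone, chromosomes 6 and 8 left out, and each clone left out. The fit was tested on simulated data first. Of the genes that met the naming rule, 2 are not reported here, and the counts include them.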

Additional observations from a re-analysis of the deposited data

Results flagged for a closer look

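Vwf, on chromosome 6, had 1.87, 1.90, 2.11 and 1.88 CPM in the 4 libraries of the empty knockout, and the library at 2.11 CPM stood further from the others than Dixon's limit for 4 samples allows. Chance alone marks about 1 in 20 such groups. Both ERR gamma libraries, at 22.7 and 19.3 CPM, lay far above all 4.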

How the results depend on the processing

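With n = 2 clones per group, the counts of called genes moved with the clones and with the groups that shared the fit. Outside chromosomes 6 and 8, higher calls numbered 2946, 4224 with only the groups compared, and 1740 to 1897 when clone 12-1, 12-3, 14-1-10 or 14-11 was left out. Lower calls there numbered 2050, 3245 with only the groups compared, and 1047 to 1294 without any 1 of those clones. Chromosome 6 had 333 calls, 520 with only the groups compared and 190 to 208 without 1 of them. Chromosome 8 had 509 calls, 293 with each clone's shift as offset and 406 to 421 without 1 of the clones. ERR gamma against ERR beta had 3870 calls and 1745 (without 14-1-10) to 2826 (without ERR beta clone 8-3) when 1 clone was left out, with 1895 without 8-4. Leaving chromosomes 6 and 8 out of the fit gave 2609 higher and 2402 lower calls elsewhere and no value for their own genes. Under the offset, 13 genes of chromosome 8 went from called lower to called higher, and 0 of chromosome 6. Of 124 named genes, 117 were called, and 1469 results under the alternatives gave 1443 with the same direction and call, 19 that lost the call, 7 that gained it and 0 that changed direction. Leaving out an ERR beta clone, and counting list members under each setting, were chosen after seeing the data. Genes under about 1 CPM rest on few counts. No paired analysis was possible because libraries were summed by clone, and the ERR gamma clones have 1 library each, untitled by number and both with the suffix 2 in their description, so that the groups share at most 1 number.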

Other observations

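Some genes that rose or fell lay next to each other. All runs of 15 neighbouring tested genes outside chromosomes 6 and 8 were ranked by their median log2 fold change after values had been seen, and the ranges are given with no test. Of 13447 runs, 37 had a median of 1 or more and 0 a median of −1 or less. The highest lay on chromosome 11, from Slc39a11 to Rab37 (mm10, 113244855 to 115162240), with a median of 1.6 and 9 genes higher and 0 lower. In it Slc39a11, a zinc transporter gene, had 12.4 and 12.9 CPM in the empty clones and 45.9 and 41 CPM in the ERR gamma clones. Ttyh2, a membrane protein gene, had 13.7 and 13 against 51.8 and 48.4 CPM, and the receptor gene Gprc5c 2.09 and 3.03 against 29.2 and 23.1 CPM. The median value is that of Rab37, which was not called (adjusted p = 0.0626) and had 0.182 and 0.0649 CPM in the empty clones. Sstr2, Sdk2, Dnaic2, Kif19a and Cd300a were also low there, at 0.476 CPM or less. With ERR beta the same run had a median of 0.13 and 1 gene higher than in the empty knockout.

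A second run, on chromosome 4 from Emc1 to Padi2 (139352587 to 140952586), had a median of 1.47 and 9 genes higher and 0 lower. It holds Klhdc7a and the 5 tested Padi genes, which encode peptidylarginine deiminases: Padi4 had 2.09 and 1.73 against 16 and 13.5 CPM. The lowest run lay on chromosome 7, from Herc2 to Peg12 (56050155 to 62464510), with a median of −0.85, 1 gene higher and 8 lower, and includes the imprinted genes Snrpn and Snurf, whose exons overlap so that 1 read can count for both. With ERR beta that run had 0 genes higher and a median of −0.0442. Neighbouring genes are not independent, and why runs of them differed was not tested.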
